A study of Mus musculus with 10 samples.

Results

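The unfolded protein response of the endoplasmic reticulum (ER) was examined through 10 genes that are textbook targets of its XBP1 and ATF6 branches, namely Hspa5, Hsp90b1, Calr, Pdia4, Xbp1, Dnajb9, Sdf2l1, Manf, Creld2 and Herpud1. They were named from that textbook role, with earlier results of these data known, and all 10 were found among the 55487 genes of the deposited count table and among the 13740 genes that passed the filter on low counts. The table holds 10 RNA-seq libraries from 5 male C57BL/6 Arg1tm1Lky mice (animals m2, m6, m234, m235 and m236), in which enhanced yellow fluorescent protein (YFP) reports Arg1 promoter activity. All animals, reported as 8 to 12 weeks old, had experimental autoimmune encephalomyelitis (EAE), an immunization-induced demyelinating disease of the central nervous system, and were taken at peak disease. From each spinal cord, viable Ly6G- CD3- CD45+ CX3CR1+ myeloid cells were sorted into 200000 YFP+ cells, called ARG1+, and 100000 YFP- cells, called ARG1-, so that each group has 5 libraries and every ARG1+ library has an ARG1- partner from the same animal. There was no healthy animal and no time point other than peak disease in the comparison, so the levels below contrast 2 fractions of inflamed spinal cord myeloid cells.

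Secretory and membrane proteins fold in the ER, and when unfolded proteins accumulate there the sensors IRE1, ATF6 and PERK signal to the nucleus. IRE1 splices the Xbp1 mRNA into the form that encodes the active transcription factor, ATF6 is cut by Golgi proteases to free its own transcription factor, and PERK slows translation while ATF4 is made. XBP1 and ATF6 raise chaperones, folding enzymes and the machinery that removes misfolded proteins, and macrophages, which secrete much and present antigens, use this program to match folding capacity to load. Gene counts do not separate spliced from unspliced Xbp1 mRNA, so IRE1 activity itself was not measured here.

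Many promoters of this program carry the ER stress response element (ERSE), spelled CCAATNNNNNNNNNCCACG, in which the left half-site binds NF-Y and the right half-site, once NF-Y is bound, binds ATF6 or XBP1. A compact variant, ERSE-II, is spelled ATTGGNCCACG, and its left half-site is the reverse complement of that of the ERSE. RefSeq promoter sequences (GRCm38.p6, 250 bases before to 50 after the transcript start) were held for 9 of the 10 genes, all but Manf, and both strands were searched. The matches are shown because they mark which of the genes share this element. Each is read 5′ to 3′ in the direction of the motif with 12 bases on each side, and capitals mark the half-sites.
Hspa5 ERSE (chr2:34772013-34772055, plus strand): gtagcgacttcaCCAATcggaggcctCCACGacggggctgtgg
Hsp90b1 ERSE (chr10:86705626-86705668, minus strand): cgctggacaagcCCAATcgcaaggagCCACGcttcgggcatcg
Hsp90b1 ERSE (chr10:86705521-86705563, plus strand): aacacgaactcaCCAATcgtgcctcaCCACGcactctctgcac
Calr ERSE (chr8:84847063-84847105, plus strand): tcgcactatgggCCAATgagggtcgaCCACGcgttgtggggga
Creld2 ERSE (chr15:88819508-88819550, minus strand): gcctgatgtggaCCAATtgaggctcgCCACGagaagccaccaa
Herpud1 ERSE-II (chr8:94386365-94386399, plus strand): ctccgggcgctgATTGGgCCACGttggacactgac

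An exact ERSE stood in 4 of the 9 promoters (Hspa5, Hsp90b1, Calr and Creld2) and in 0.119% of all 32851 promoters of the same length. Hsp90b1 held 2 copies, 1 on each strand, and the other three genes 1 copy each. ERSE-II stood in 1 of the 9, Herpud1, and in 0.0365% of all promoters. The UPRE core TGACGTGG, a site for XBP1 or ATF6 that contains the right half-site of the ERSE on its other strand, had 0 exact matches in the 9 promoters and stood in 0.676% of all promoters. Single half-sites were common. CCAAT was found on either strand in 8 of the 9 promoters against 37.4% of all promoters, and CCACG in 8 of the 9 against 32.8%, counting also those inside an ERSE. Among the 11511 promoters of tested genes, the shares were 0.13% for ERSE, 0.0695% for ERSE-II, 0.843% for the UPRE core, 37.7% for CCAAT and 46.9% for CCACG. Xbp1 was the promoter without either half-site. A match is only a run of letters in this window, and no binding was measured.

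**Figure D1:**
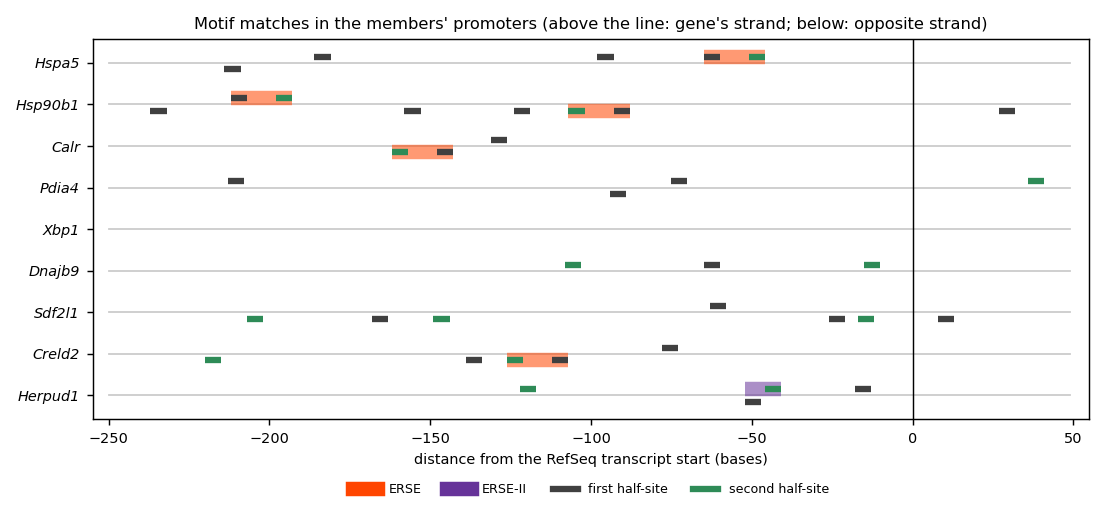
Exact matches in 9 promoters, plotted by distance in bases from the RefSeq transcript start, with matches on the strand of the gene above each line and those on the opposite strand below. Wide bars are the ERSE and ERSE-II, and narrow bars are the single half-sites of the ERSE. The ERSE of Hspa5 lies from 65 to 47 bases before the start, the pair in Hsp90b1 begins 212 and 107 bases before it, and the line of Xbp1 is empty.

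The 10 genes did not move together between ARG1+ and ARG1- cells. In the fit that treated the libraries as independent, 0 of the 10 were higher and 0 lower in ARG1+ cells at a false discovery rate (FDR) below 0.05 in edgeR's quasi-likelihood test adjusted over all tested genes, where 6.82% of all tested genes were higher and 6.15% lower. Of the 10 genes, DESeq2 called 1 (Pdia4, FDR = 0.0319), beside 1276 higher and 1307 lower calls among all tested genes. The limma-trend fit called 0 of the 10, beside 914 and 841 such calls. An unadjusted p below 0.05 in the edgeR fit was reached by 5 of the 10. How many of all tested genes reached it was not counted, so no excess can be read from the 5. With the animal as a block, which compares the 2 fractions of each mouse, 2 genes were higher (Pdia4 and Dnajb9) and 4 were lower (Xbp1, Manf, Creld2 and Herpud1), beside 16.8% of all tested genes higher and 18.3% lower. In all 5 animals the difference had the same direction for 2 genes that were higher (Pdia4 and Calr) and for the same 4 that were lower, and among all tested genes this held for 20.0% upward and 21.0% downward. The groups overlapped for every one of the 10 genes, so that 0 of 10 were free of overlap against 11.3% of all tested genes. None of the 10 differed by more than 1 on the log2 scale, and their median log2 fold change was -0.02 against -0.002 over all tested genes. Levels below are CPM, the counts of a gene per 1000000 counts of its library, with library totals scaled by the TMM method. In such bulk libraries, a larger share of cells with a transcript and more of it per cell cannot be told apart.

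**Figure D2:**
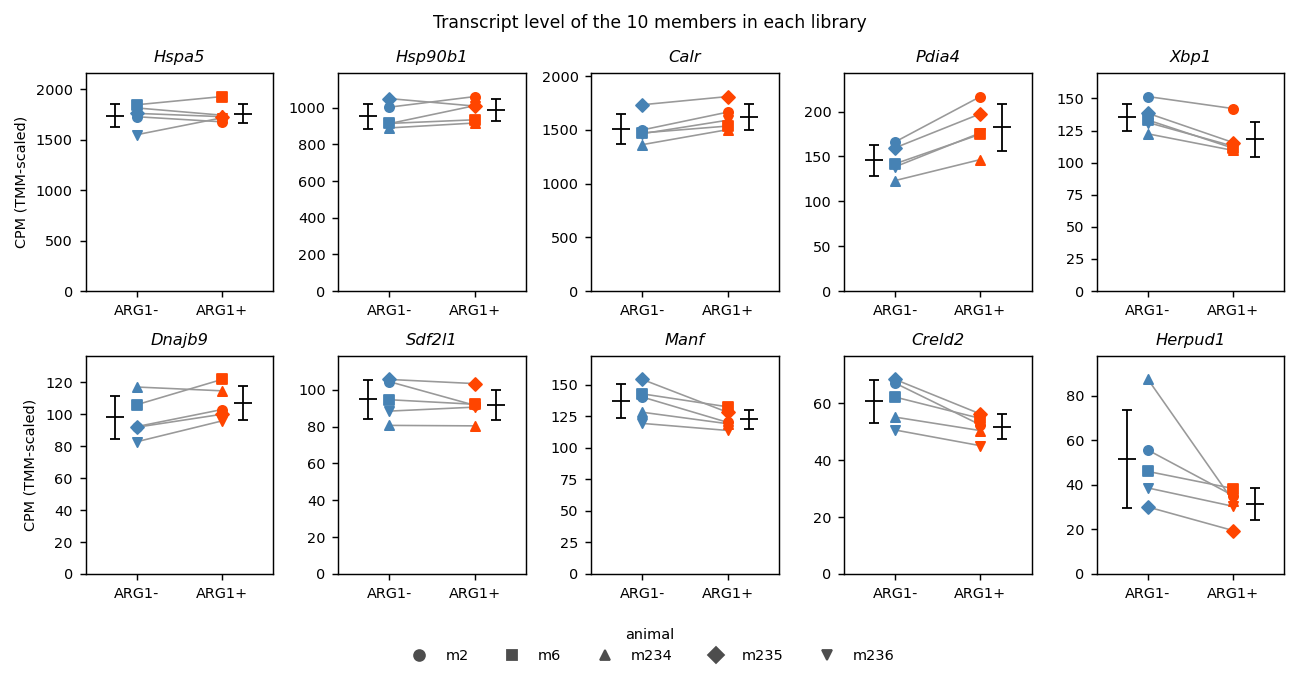
Level of each gene in CPM (TMM-scaled, linear axis from 0) in the 5 ARG1- and 5 ARG1+ libraries, with a symbol for each animal, a line joining the libraries of 1 animal, and bars for the mean and SD of each group (n = 5). The lines of Pdia4 and Calr all rise and those of Xbp1, Manf, Creld2 and Herpud1 all fall from ARG1- to ARG1+, while the groups overlap in all 10 panels.

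Library totals ran from 8396863 to 35455643 counts, the ARG1- library of m234 being the shallow one, and the smallest count of any of the 10 genes was 469, for Creld2 in that library. Arg1, the gene that the sort reports, checked the labels, with 814 ± 174 CPM in ARG1+ and 18.4 ± 4.96 CPM in ARG1- libraries (mean ± SD, n = 5 each), so that ARG1+ exceeded ARG1- cells by 5.45 ± 0.21 (SE) on the log2 scale (edgeR FDR = 1.073e-07). All 8 markers of the sorted myeloid cells were detected, led by Lyz2 at 6230 to 13000 CPM, and with the animal as block they moved in both directions. Their sum was higher in the ARG1+ library of all 5 animals, with 3 of the 8 called higher and 0 called lower (4 and 4 with the block). Among all tested genes 6.82% were called higher and 6.15% lower (16.8% and 18.3% with the block). Lyz2 exceeded its ARG1- level by 0.65 ± 0.13 (SE) on the log2 scale (edgeR FDR = 0.00764) and Cd68 by 0.58 ± 0.09 (FDR = 0.00155). Cx3cr1, which encodes the receptor used as a sorting gate, measured 140 ± 67 CPM in ARG1+ and 282 ± 176 CPM in ARG1- libraries and was lower in all 5 animals (log2 fold change -1.01 ± 0.45, FDR = 0.153, and -0.97 ± 0.10, FDR = 9.24e-05, with the block). Markers of other cells also moved with the fractions. The 8 monocyte markers summed to 2870 to 9580 CPM in ARG1+ and 2850 to 8320 CPM in ARG1- libraries (higher in ARG1+ in 4 of 5 animals), where Plac8, Ccr2 and Vcan fell in ARG1+ cells and the most abundant, Chil3, ran from 893 to 6790 CPM. The 10 conventional dendritic cell markers summed to 14 to 30.1 CPM in ARG1+ and 29.7 to 62.3 CPM in ARG1- libraries, and the 9 microglia markers to 773 to 1190 and 849 to 3220 CPM. Among 12 B cell and plasma cell markers, cells in which this program is strong, the sums were 212 to 254 and 173 to 202 CPM, of which Sdc1 alone gave 196 to 247 and 104 to 162 CPM, while Mzb1, Ms4a1 and Tnfrsf17 reached at most 0.235 CPM in any library and Igkc reached 4.57 CPM in ARG1+ and 23.6 CPM in ARG1- libraries. None of the 8 T and NK cell markers passed the filter, with sums of at most 3.22 CPM, while the 8 neutrophil markers summed to 142 to 204 CPM in ARG1+ and 174 to 274 CPM in ARG1- libraries, and the 8 plasmacytoid dendritic cell markers to 67.4 to 86.3 and 76.7 to 181 CPM. Within animals, the ARG1+ library had the lower sum of conventional dendritic cell, microglia and neutrophil markers in 5 of 5. For T and NK cell and for plasmacytoid dendritic cell markers it had the lower sum in 4 of 5. Single genes weighed heavily in some sums. In ARG1+ libraries Csf3r gave 113 to 174 CPM of the neutrophil sum and Tcf4 62.9 to 73.1 CPM of the plasmacytoid one. Of 3 tested neutrophil markers, 1 (S100a8) was higher and 2 were lower with the block. Of 7 tested conventional dendritic cell markers, 6 were lower with the block, but the most abundant, Clec9a, was higher in 4 of 5 animals. The sum of B cell and plasma cell markers was higher in 5 of 5, but most of it was Sdc1. Of the 5 such markers tested, 1 was higher (Sdc1) and 3 were lower, with or without the block. The lower ones were Igkc (log2 fold change -3.14, FDR = 0.00914), Jchain (-2.87, FDR = 0.0184) and Ighm (-1.91, FDR = 0.0030) without the block. The part of any of these cell types in the differences below was not tested.

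The folding machinery was abundant in both fractions. Per kilobase of merged exon, the only scale on which different genes are compared here, the order in ARG1+ libraries was Calr (688 to 829 CPM per kilobase), Hspa5 (447 to 513), Hsp90b1 (324 to 376), Sdf2l1 (72.5 to 93.2), Pdia4 (61.1 to 90.3), Manf (46.1 to 53.7), Xbp1 (45.8 to 59.5), Dnajb9 (39 to 49.5), Creld2 (33 to 41.2) and Herpud1 (9.96 to 19.6). Neighbours in this order overlapped between Sdf2l1 and Pdia4 and along the run from Manf through Xbp1 and Dnajb9 to Creld2, and the others were apart. In ARG1- libraries Calr, Hspa5, Hsp90b1 and Sdf2l1 again led and were apart from their next neighbour, whereas all neighbours from Pdia4 (51.3 to 69.3) through Xbp1, Manf, Creld2 and Dnajb9 to Herpud1 (15.4 to 44.7) overlapped. The first 3 stood at or above the 99.2th percentile of mean CPM among tested genes.

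The chaperones and foldases came first. Hspa5 (chr2:34771970-34777547, GRCm38, plus strand) encodes BiP, the ER HSP70 chaperone that also holds the sensors inactive. In the order m2, m6, m234, m235 and m236, used throughout, Hspa5 measured 1677, 1927, 1742, 1728 and 1716 CPM in ARG1+ cells and 1727, 1846, 1814, 1760 and 1549 CPM in ARG1- cells. The ARG1+ library of m6 was the highest and the ARG1- library of m236 the lowest, the groups overlapped, and the difference pointed up in 2 animals and down in 3. The log2 fold change was 0.02 ± 0.07 (SE, 5 libraries per group; FDR = 0.905), with a 95% interval from -0.13 to 0.16, and 0.02 with the animal as block (FDR = 0.802; interval from -0.08 to 0.11). Its sign turned with total-count scaling (-0.03) and without the ARG1+ library of m6 (-0.02) or the ARG1- library of m236 (-0.02), so no direction is given for Hspa5.

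Hsp90b1 (chr10:86690209-86705509, minus strand) encodes GRP94, the HSP90 of the ER, whose clients include Toll-like receptors and integrins. It measured 1061, 934, 917, 1009 and 1011 CPM in ARG1+ and 1003, 914, 890, 1050 and 914 CPM in ARG1- cells. The 2 ranges nearly coincided, and only in m235 was the ARG1- library the higher of the pair. This gave a log2 fold change of 0.05 ± 0.07 (FDR = 0.678; interval from -0.10 to 0.20), and with the block 0.05 (FDR = 0.380). In the annotation, 14.7% of the exon bases of Hsp90b1 are also exon of a gene on the opposite strand and 6.94% of one on the same strand. The authors counted in Union mode, and whether strand was used in counting was not stated.

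Calr (chr8:84841850-84846934, minus strand) encodes calreticulin, the lectin chaperone of N-glycosylated proteins and a part of the machinery that loads peptides on MHC class I. It measured 1665, 1536, 1502, 1810 and 1590 CPM in ARG1+ and 1499, 1472, 1363, 1734 and 1464 CPM in ARG1- cells. The ARG1+ library was the higher one in every animal, by 1.043-fold in m6 to 1.11-fold in m2, yet the spread between animals was wider than the difference within them. Its log2 fold change was 0.11 ± 0.08 (FDR = 0.396), and 0.11 with the block, where it just missed the threshold (FDR = 0.0513; interval from 0.02 to 0.19). With upper-quartile scaling and the block Calr passed (FDR = 0.0453).

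Pdia4 (chr6:47796141-47813430, minus strand) encodes ERp72, a protein disulfide isomerase that forms and rearranges disulfide bonds, and it had the largest upward difference of the 10. It measured 217, 175, 146, 198 and 176 CPM in ARG1+ and 166, 142, 123, 160 and 138 CPM in ARG1- cells. The libraries of m234 were the lowest and those of m2 the highest of both groups, and the ARG1+ range began below the top of the ARG1- range. Within animals Pdia4 was 1.19-fold (m234) to 1.304-fold (m2) higher in ARG1+ cells, a narrow range around the fitted 24.9% increase. Without the block its log2 fold change was 0.32 ± 0.11 (FDR = 0.0690; interval from 0.09 to 0.55), and with the block 0.32 ± 0.03 (FDR = 9.445e-05; interval from 0.24 to 0.40). Without a block it passed once the ARG1+ library of m234 (FDR = 0.0246) or both libraries of m234 (FDR = 0.0325) were left out, and with the block it passed in every alternative run.

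The cochaperones followed. Dnajb9 (chr12:44205559-44210326, minus strand) encodes ERdj4, a J-domain partner of BiP that favours degradation of misfolded clients and keeps BiP on IRE1. It measured 103, 122, 115, 100 and 95.9 CPM in ARG1+ and 92.3, 106, 117, 91.9 and 82.8 CPM in ARG1- cells. The ARG1+ library was higher in 4 animals and lower in m234. Its log2 fold change was 0.13 ± 0.10 (FDR = 0.386), and with the block 0.14 ± 0.04 (FDR = 0.0281). This blocked call was lost without m2 (FDR = 0.1006), m6 (FDR = 0.1134), m235 (FDR = 0.0581) or m236 (FDR = 0.0944), and with total-count scaling (FDR = 0.1055). A stretch of 50 bases is the read length here, and 5.5% of such stretches of the Dnajb9 transcripts also occur in Gm6568.

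Sdf2l1 (chr16:17130138-17132383, minus strand) encodes an ER protein that works with BiP and its J-domain partners to keep clients from aggregating. It measured 91.5, 92.1, 80.4, 103 and 90.5 CPM in ARG1+ and 104, 94.5, 80.6, 106 and 88.4 CPM in ARG1- cells. Apart from m2, where the ARG1+ library was lower (0.8772-fold), the libraries of a pair lay close together, from 0.974-fold in m6 to 1.024-fold in m236. Its log2 fold change was -0.05 ± 0.08 (FDR = 0.721; interval from -0.23 to 0.13), and -0.05 with the block (FDR = 0.391).

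The 2 small secretable ER proteins had lower values in ARG1+ cells in every animal. Manf (chr9:106838312-106891979, minus strand) encodes a trophic factor that is held in the ER through BiP and released under stress. It measured 120, 132, 119, 128 and 114 CPM in ARG1+ and 140, 143, 128, 154 and 119 CPM in ARG1- cells. The lower values lay in ARG1+ libraries, but the groups overlapped between 119 and 132 CPM. For Manf the log2 fold change was -0.16 ± 0.07 (FDR = 0.162), and with the block Manf fell by 0.16 on the log2 scale (FDR = 0.0125), a call that was lost without m2 (FDR = 0.0632) or m235 (FDR = 0.0657). Of its exon bases, 6.74% are also exon on the opposite strand.

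Creld2 (chr15:88819646-88826683, plus strand) encodes a cysteine-rich protein with EGF-like repeats that is retained in the ER and partly secreted. It measured 52.5, 54.7, 50.5, 56.3 and 45.1 CPM in ARG1+ and 67.2, 62.3, 55.2, 68.5 and 50.7 CPM in ARG1- cells. The libraries of m236 were lowest in both groups and those of m235 highest in both. The log2 fold change was -0.23 ± 0.09 (FDR = 0.106), and with the block Creld2 fell by 0.23 ± 0.04 on the log2 scale (FDR = 0.00262; interval from -0.32 to -0.13), a call kept in every blocked alternative. Without a block it passed when the ARG1- library of m236 was left out (FDR = 0.0435).

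Xbp1 (chr11:5520659-5525893, plus strand) encodes the transcription factor of the IRE1 branch and is itself a target of ATF6. It measured 142, 111, 110, 116 and 113 CPM in ARG1+ and 151, 133, 122, 138 and 131 CPM in ARG1- cells. In both groups m2 was the highest library, and without m2 the highest ARG1+ value (116 CPM) lay below the lowest ARG1- value (122 CPM). That omission was chosen after the values were seen, and overlap without m2 was not counted over all tested genes. For Xbp1 the log2 fold change was -0.20 ± 0.08 (FDR = 0.124), and with the block Xbp1 fell by 0.20 ± 0.04 on the log2 scale (FDR = 0.00267; interval from -0.28 to -0.12), again a call kept in every blocked alternative. Leaving out the ARG1+ library of m2 gave -0.27 without a block (FDR = 0.0279), but leaving out both libraries of m2 gave -0.23 (FDR = 0.0501).

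Herpud1 (chr8:94386438-94395377, plus strand) encodes HERP, a membrane protein that helps organize the ubiquitin ligase complex of ER-associated degradation, and it had the largest difference of the 10. It measured 35.1, 38.3, 32.6, 19.4 and 30.3 CPM in ARG1+ and 55.5, 46.0, 87.2, 30.0 and 38.6 CPM in ARG1- cells. The ARG1+ library was the lower one in all 5 animals, from 0.3746-fold in m234 to 0.8334-fold in m6, and the ARG1- library of m234 stood well above all others. The log2 fold change was -0.70 ± 0.26 (FDR = 0.0901; interval from -1.26 to -0.14), and with the block Herpud1 fell by 0.65 ± 0.13 on the log2 scale (FDR = 0.00442; interval from -0.95 to -0.35). Without both libraries of m234 the blocked difference was -0.47 (FDR = 6.323e-05), and without the ARG1- library of m234 the unblocked one was -0.45 (FDR = 0.157). Leaving out the ARG1- library of m235 gave -0.84 without a block (FDR = 0.0397). The same ARG1- library of m234 had the highest sum of the microglia markers, 3220 CPM against 1580 CPM in m2, 1280 CPM in m236, 1110 CPM in m6 and 849 CPM in m235, and the part of those cells in the Herpud1 level was not tested.

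**Figure D3:**
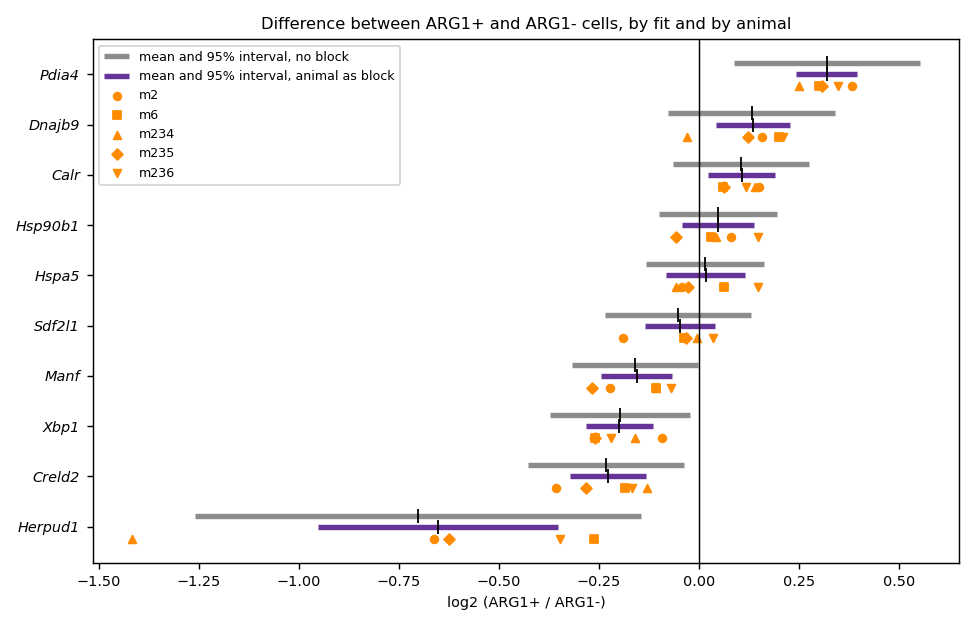
Difference between ARG1+ and ARG1- cells for each gene on the log2 scale, with the fitted mean and 95% interval without a block (grey), with the animal as block (purple), and the difference within each of the 5 animals (orange symbols). The blocked intervals of Pdia4, Dnajb9 and Calr lie above 0, those of Manf, Xbp1, Creld2 and Herpud1 below 0, and the 5 animals of Herpud1 run from -1.417 to -0.263.

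The whole promoters of Pdia4 and Herpud1 are shown because these genes had the largest difference in each direction. Both sequences run from 250 bases before to 50 after the RefSeq start (GRCm38.p6), 5′ to 3′ on the strand of the gene, and capitals mark both ERSE half-sites on either strand.
Pdia4 promoter (chr6:47813463-47813762, minus strand): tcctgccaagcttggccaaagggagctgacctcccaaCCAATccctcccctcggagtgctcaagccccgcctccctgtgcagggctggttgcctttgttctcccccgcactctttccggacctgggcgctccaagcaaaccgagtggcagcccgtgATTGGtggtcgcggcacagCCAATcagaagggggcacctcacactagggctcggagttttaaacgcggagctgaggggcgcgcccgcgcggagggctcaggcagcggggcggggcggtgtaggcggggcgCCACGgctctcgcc
Herpud1 promoter (chr8:94386179-94386478, plus strand): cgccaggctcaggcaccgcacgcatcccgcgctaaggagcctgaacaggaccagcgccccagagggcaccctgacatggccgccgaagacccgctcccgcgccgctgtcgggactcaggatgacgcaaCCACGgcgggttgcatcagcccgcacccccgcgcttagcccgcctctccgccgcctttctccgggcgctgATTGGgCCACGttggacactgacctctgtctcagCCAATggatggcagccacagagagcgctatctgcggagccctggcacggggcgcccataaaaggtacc
Pdia4 holds 3 CCAAT half-sites and 1 CCACG without the spacing of an ERSE, whereas the ERSE-II of Herpud1 lies from 52 to 42 bases before its start. Among the genes with an ERSE, Hspa5, Hsp90b1 and Calr passed the threshold in neither of the 2 fits, and Creld2 was lower with the block. Outside the 10, 10 further tested genes had an exact ERSE, of which 1 was higher and 0 were lower without the block (3 and 1 with it), at a median log2 fold change of -0.05. For 7 further tested genes with ERSE-II these numbers were 1 and 1 (2 and 3 with the block), at a median of -0.12. These further genes were counted after the values were seen. Beside them, 6.82% of all tested genes were higher and 6.15% lower without the block (16.8% and 18.3% with it).

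BiP itself differed by only 0.02 on the log2 scale, so ratios to it stay close to each gene's own log2 fold change by construction. On the log2 scale the ratio to Hspa5 in the same library was on average 0.30 higher in ARG1+ than in ARG1- libraries for Pdia4, 0.12 for Dnajb9, 0.09 for Calr and 0.03 for Hsp90b1, and -0.06 for Sdf2l1, -0.17 for Manf, -0.21 for Xbp1, -0.24 for Creld2 and -0.68 for Herpud1. For each of these 9 ratios the groups overlapped, and such ratios were not counted over all tested genes.

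The 10 genes did not vary as 1 unit across the libraries either. Pearson correlations of log2 CPM are given as a description over 10 libraries that come in pairs from 5 animals, first over all of them and then after the group means were removed. Manf and Creld2 were the closest pair (0.956, then 0.932), and Hspa5 went with Dnajb9 (0.788, then 0.819). Hsp90b1 went with Calr (0.818, then 0.809) and with Pdia4 (0.807, then 0.877). Herpud1 ran against Calr (-0.858, then -0.823). For Hspa5 and Hsp90b1 the sign depended on the measure, with -0.218, then -0.257, but 0.586 over the 5 within-animal differences between the fractions. The correlation of a gene with the mean of the other 9 was highest for Creld2 (0.708), Manf (0.682) and Sdf2l1 (0.676), and was below 0 for Dnajb9 (-0.189) and Herpud1 (-0.258). Among tested genes outside the 10, the levels most like the mean standardized level of the 10 were those of Hyou1 (0.951), which encodes an ER HSP110 chaperone, Bnip2 (0.93), Septin11 (0.922), Apaf1 (0.892) and Gripap1 (0.887), and none of these passed the test between ARG1+ and ARG1- cells (FDR from 0.529 for Hyou1 to 0.955 for Bnip2).

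The genes around this program were described by lists of textbook members, each given by its counts and its median. For every list the comparison is with all tested genes, of which 6.82% were higher and 6.15% lower without the block. With the block these shares were 16.8% and 18.3%, and the median log2 fold change of all tested genes without it was -0.002. Of 12 tested sensors, their proteases and cofactors, 1 was higher and 1 lower without the block (2 and 5 with it), at a median log2 fold change of -0.03. Mbtps2, the site-2 protease that completes the cleavage of ATF6, rose from 20.1 ± 0.83 CPM in ARG1- to 25.1 ± 1.13 CPM in ARG1+ libraries without overlap (log2 fold change 0.32 ± 0.06, FDR = 0.00465). Nfya, the subunit of NF-Y that contacts the CCAAT box, fell from 98 ± 7.75 to 84.3 ± 4.66 CPM (-0.22 ± 0.06, FDR = 0.0415). The most abundant of the list, Rtcb, the ligase that joins the cut Xbp1 mRNA, measured 177 ± 29.2 and 195 ± 29.9 CPM in ARG1+ and ARG1- libraries (FDR = 0.503, and 0.0311 with the block). The sensors themselves are named in addition, with their values known. Atf6 measured 109 ± 3.32 and 125 ± 14.6 CPM (FDR = 0.0830, and 0.0150 with the block), Ern1, which encodes IRE1, 99.6 ± 2.74 and 90.9 ± 5.92 CPM (FDR = 0.116, and 0.0371 with the block), and Eif2ak3, which encodes PERK, 30.9 ± 2.35 and 29.1 ± 3.98 CPM (FDR = 0.576, and 0.199 with the block).

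The PERK and ATF4 branch had the lowest median of the lists. Of its 17 tested genes, 4 were lower in ARG1+ cells and 0 higher (10 and 1 with the block), at a median of -0.18. Phgdh, the first enzyme of serine synthesis, fell from 9.52 ± 3.17 to 3.94 ± 1.17 CPM (-1.26 ± 0.26, FDR = 0.00956). Asns, asparagine synthetase, fell from 6.65 ± 0.56 to 4.27 ± 0.82 CPM (-0.64 ± 0.14, FDR = 0.0108), and Mthfd2, a mitochondrial enzyme of one-carbon metabolism, from 39.3 ± 3.49 to 26.4 ± 3.43 CPM (-0.56 ± 0.09, FDR = 0.00285). All 3, named for the largest change among the called genes, were free of overlap between the groups. So were 4 of the 17 tested genes of the list, all lower in ARG1+ cells, and 11.3% of all tested genes. The most abundant, Cebpb, a transcription factor of myeloid cells, measured 604 ± 58.4 and 623 ± 62.0 CPM (FDR = 0.760), and Atf4 mRNA itself, named with its values known, 320 ± 29.3 and 327 ± 35.6 CPM (FDR = 0.858). As background, these amino acid and one-carbon enzymes are targets of ATF4 under amino acid limitation as well as under ER stress.

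The further folding machinery had the highest median of the lists. Of 33 tested ER chaperones and foldases outside the 10, 5 were higher and 0 lower (11 and 2 with the block), at a median of 0.09. Mesd, a chaperone of LDL receptor family proteins, rose from 25.4 ± 3.35 to 34.1 ± 3.82 CPM (0.41 ± 0.10, FDR = 0.0193), Prdx4, the peroxiredoxin of the ER, from 25.6 ± 2.39 to 33.4 ± 4.13 CPM (0.38 ± 0.09, FDR = 0.0207), and Creld1, the paralog of Creld2, from 20.8 ± 1.82 to 25 ± 1.11 CPM (0.26 ± 0.07, FDR = 0.0305). Creld1 and Creld2 therefore differed in sign in these libraries. P4hb, the most abundant of the list and the main protein disulfide isomerase, measured 841 ± 41.2 and 783 ± 46.2 CPM (FDR = 0.276, and 0.0502 with the block).

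Of 28 tested genes of ER-associated degradation, 0 were higher and 3 lower (4 and 5 with the block), at a median of -0.02. Edem1, which marks misfolded glycoproteins for disposal, fell from 336 ± 18.2 to 287 ± 9.10 CPM (-0.23 ± 0.05, FDR = 0.0169), Ube2j1, a ubiquitin-conjugating enzyme of the ER membrane, from 165 ± 3.73 to 144 ± 4.25 CPM (-0.19 ± 0.04, FDR = 0.0148), and Ubxn4, a recruiter of the VCP ATPase, from 99.8 ± 1.34 to 88.2 ± 3.36 CPM (-0.18 ± 0.04, FDR = 0.0189). These had the sign of Herpud1. The most abundant, Os9, a lectin that delivers clients to the ligase, had the opposite sign, with 288 ± 8.88 and 262 ± 11.6 CPM (FDR = 0.0894, and 0.0188 with the block).

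Of 40 tested genes of ER translocation and N-glycosylation, 1 was higher and 1 lower (11 and 4 with the block), at a median of 0.04. Alg2, a mannosyltransferase of the glycan precursor, rose from 8.85 ± 1.26 to 11.5 ± 0.97 CPM (0.39 ± 0.11, FDR = 0.0352), and Sec61g, a subunit of the translocon, fell from 11.6 ± 1.57 to 9.28 ± 0.60 CPM (-0.33 ± 0.10, FDR = 0.0459). Rpn2, a subunit of the oligosaccharyltransferase and the most abundant, measured 276 ± 18.2 and 253 ± 21.8 CPM (FDR = 0.253, and 0.0129 with the block). Of 33 tested genes of ER to Golgi transport, 3 were higher and 1 lower (7 and 2 with the block), at a median of 0.05. Mcfd2 and Lman1, which form the cargo receptor complex for glycoproteins, rose from 93.0 ± 3.60 to 115 ± 6.77 CPM (0.31 ± 0.05, FDR = 0.00341) and from 69.8 ± 3.14 to 82.5 ± 8.39 CPM (0.24 ± 0.07, FDR = 0.0415). Among the COPII coat subunits, Sec24d rose from 30.8 ± 4.22 to 39.9 ± 5.11 CPM (0.37 ± 0.11, FDR = 0.0437) while Sec24b fell from 106 ± 1.66 to 90.8 ± 5.44 CPM (-0.22 ± 0.05, FDR = 0.0137). Copa, a COPI coat subunit and the most abundant, measured 346 ± 21.5 and 324 ± 21.8 CPM (FDR = 0.340).

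**Figure D4:**
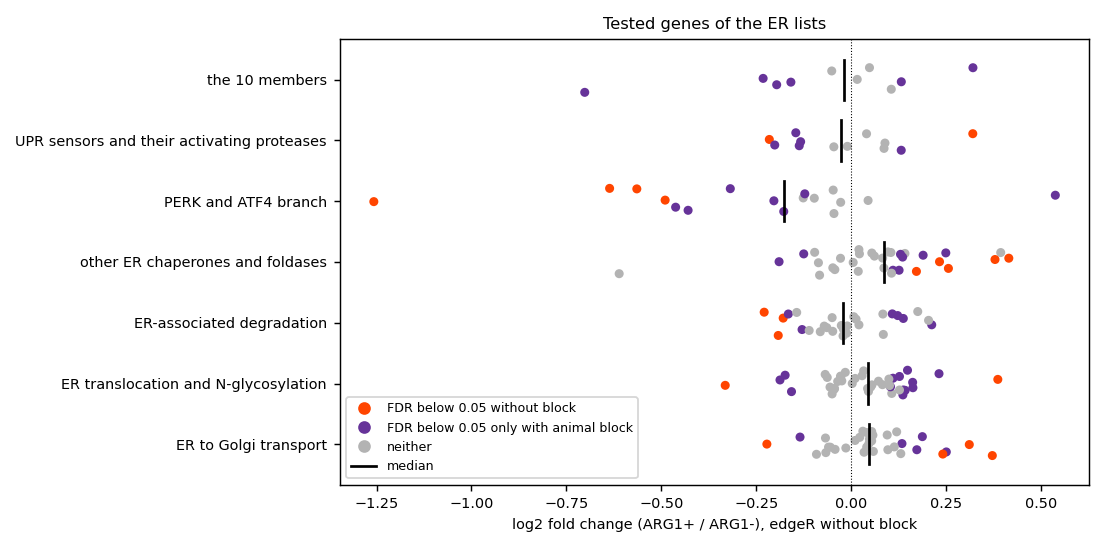
Log2 fold change (ARG1+ over ARG1-, edgeR without block) of every tested gene of the 10 and of 6 ER lists, with the median of each list as a black bar, and colour for the fit in which a gene passed an FDR below 0.05 (vertical scatter is only for legibility). The points of the 10 run from -0.70 (Herpud1) to 0.32 (Pdia4), the PERK and ATF4 list lies furthest to the left with a median of -0.18, and the other chaperones and foldases have a median of 0.09.

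Genes induced by tissue dissociation, which include heat shock genes outside the ER, were also measured because sorting takes time. The 14 genes of that list summed to 7000 to 9190 CPM in ARG1+ and 6280 to 8430 CPM in ARG1- libraries, and their sum was higher in the ARG1+ library than in its partner in all 5 animals. Of the 14, 3 were higher and 1 lower in the ARG1+ fraction (6 and 5 with the block). Among all tested genes 6.82% were higher and 6.15% lower (16.8% and 18.3% with the block). The most abundant of the 14, Fosb, ran from 1040 to 1640 CPM. The heat shock genes of the list went against the sum. Hspa1b was lower in the ARG1+ library in 5 of 5 animals (log2 fold change -0.31, edgeR FDR = 0.0200 with the block). Hspa1a was lower in 4 of 5 (-0.24, FDR = 0.0855 with the block). Mitochondrially encoded transcripts took 0.732% to 0.889% of counts in ARG1+ and 0.702% to 0.864% in ARG1- libraries, with the higher share in the ARG1+ library in all 5 animals. The part of dissociation in the levels of the 10 genes was not tested.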

How the data were processed

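Total RNA of the 10 libraries was prepared by the authors with TRIzol, made into strand-specific libraries (NEBNext Ultra II Directional) and sequenced as single-end reads of 50 bases. The authors aligned these to GRCm38 with STAR (2.7.10b in the submitters' processing notes, which also name Picard and mm10) and deposited whole-number counts per gene, obtained with summarizeOverlaps in Union mode on basic Ensembl transcripts of release 100 and summed to genes. Whether strand was used in counting was not stated. The filter of the authors was kept (3 or more libraries with a CPM over 1, where CPM is the count of a gene per 1000000 counts of its library). edgeR 4.0.16 in R 4.3.3 (TMM factors, quasi-likelihood test, Benjamini-Hochberg adjustment over 13740 genes, FDR below 0.05) was fitted without a block, since the study's methods name none, and with the animal as block. CPM values use TMM library sizes. limma 3.58.1 and DESeq2 1.42.0 were alternatives, and the scripts were tested on simulated counts.

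The labels give both libraries of an animal the same animal number, and the residuals of such pairs from their group means had correlations of 0.361 to 0.664 across genes, against -0.367 to 0.0675 between different animals, where genes are not independent replicates. Without a block, each p-value treats the 10 libraries as independent, although they come in pairs. With the block, it describes the spread of the differences within 5 animals. Libraries of a group differed by a chi-square of 17.9 to 72.7 per degree of freedom, and no 2 were counted as 1.

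Exon lengths, exon overlap and shared stretches of 50 bases came from GENCODE vM21 (GRCm38). The lists were written from textbook knowledge, and the members and lists were chosen with earlier results of these data known. Named genes are the 10 members in every library, the most abundant gene and up to 3 called genes per direction with the largest change in each list, Arg1, the 5 genes most like the members, and the markers. Protein sequences and ER-retrieval tails were not analysed here, and single values of some marker genes are not reported here.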

Additional observations from a re-analysis of the deposited data

Results flagged for a closer look

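In 2 of the 20 groups of 5 libraries (10 genes in 2 fractions), 1 library stood apart from the others by more than the 95% limit of Dixon's test (a gap of 0.71 of the whole range), and chance alone flags about 1 group in 20. Hspa5 in the ARG1+ library of m6 measured 1927 CPM, above the other 4 by 0.737 of the range. The ARG1- library of m6 was also the highest of its group for Hspa5, within that limit. Xbp1 in the ARG1+ library of m2 measured 142 CPM, above the other 4 by 0.812 of the range, and the ARG1- library of m2 was likewise the highest of its group for Xbp1. The ARG1- library of m234 was the highest of its group for Herpud1, with a gap of 0.554 that stayed within the limit.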

How the results depend on the processing

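Without a block the 10 members had 0 calls in either direction with median-of-ratios, upper-quartile or total-count scaling, limma-trend, no filter or a filter at a mean of 10 CPM. DESeq2 called 1 higher, and the replicate block called 2 higher and 4 lower in edgeR and the same numbers in limma-trend. Leaving out 1 library or both of an animal gave 0 to 1 higher and 0 to 1 lower. With the replicate block and 1 animal left out, a fit chosen after seeing the data, 1 to 2 members were higher and 3 to 4 lower, and total-count scaling with the block left 1 higher.
For Hspa5 the sign turned with total counts (-0.025, and -0.024 with the block). Leaving out libraries or animals gave -0.024 to 0.037 for Hspa5 without the block and -0.017 to 0.035 with it. The median log2 fold change of all tested genes was -0.043 with total counts, against -0.002 with TMM.
Over all tested genes, 937 were higher and 845 lower. The replicate block gave 2307 and 2519, limma-trend with the replicate block 2250 and 2428, an FDR below 0.01 gave 346 and 263, and an added limit of 1 on the absolute log2 fold change 77 and 122. Lower calls were 1282 with total counts and 1307 with DESeq2. With libraries or animals left out the counts ran from 360 to 1037 higher and 284 to 911 lower, and with the replicate block from 1478 to 2706 and 1612 to 2823.
The replicate block moved the calls of the lists to 2 higher and 5 lower for the sensors, 1 and 10 for the PERK and ATF4 branch, 11 and 2 for the other chaperones and foldases, 4 and 5 for ER-associated degradation, 11 and 4 for translocation and N-glycosylation, and 7 and 2 for ER to Golgi transport. Where a call changed, the cause was not tested. The lowest member count was 469, and the part of library depth in the calls was not tested. The 5 animals at 1 time point limit all comparisons.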
